A study of Homo sapiens with 5 samples.

Results

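Aminoacyl-tRNA synthetases are the enzymes that join each amino acid to its tRNA. Their genes were followed on 5 Affymetrix human genome arrays of C4-2B cells, a prostate cancer line descended from LNCaP that forms bone metastases, grown in serum-containing medium. The list named 35 genes, 19 for cytosolic and 16 for mitochondrial synthetases. Its rule used gene names alone, but it was drawn up with earlier results of these arrays known. Probe sets that map to 1 of these genes alone gave values for 32 of the 19775 genes on the arrays, 17 cytosolic and 15 mitochondrial. MARS1, QARS1 and TARS2 lie only on probe sets that the gene table also assigns to a microRNA gene, and are not reported here. Each condition was 1 array: a control with 0.1% DMSO, the solvent; BR-DIM (B-DIM in the labels), a formulated diindolylmethane from cruciferous vegetables, at 25 µM for 6 h and for 48 h; and isoflavone (G2535), a soy mixture rich in genistein and daidzein, at 25 µM of its genistein for 6 h and for 72 h. How long the control was cultured is not stated in the labels or the methods, and the time of harvest cannot be told apart from treatment in any comparison with it.

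Cytosolic synthetases charge tRNAs for the proteins made on cytosolic ribosomes, and a separate set, encoded in the nucleus and imported, serves the ribosomes inside mitochondria. Several cytosolic members are held together in the multi-tRNA synthetase complex. When cells lack an amino acid or have other stresses that act through phosphorylated eIF2, the transcription factor ATF4 is made and binds C/EBP-ATF response elements, and genes of many cytosolic synthetases are among its known targets. GARS1 and KARS1 each encode both the cytosolic and the mitochondrial enzyme.

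Promoter sequence is shown first because several members that were higher after treatment carry a match to the core of the C/EBP-ATF response element. RefSeq promoters (GRCh38.p14, 250 bases before and 50 bases from the start site on, all windows of a gene) were at hand for 30 of the 35 listed genes, and LARS1, VARS1, YARS1, AARS2 and VARS2 had none in the table used. The motif TGATGNAA was searched on both strands. It was found in 3.62% of the 35116 windows in the table and in 4.46% of the 27305 genes. Among the cytosolic synthetases 7 of 16 genes (43.8%) and 7 of 21 windows (33.3%) held it, and among the mitochondrial ones 1 of 14 genes (7.14%) and 1 of 18 windows (5.56%). The 7 cytosolic stretches and the mitochondrial one follow, 5′ to 3′ on the gene's strand, with the match in capitals. Where the match is on the opposite strand, its reverse complement is what is printed.
AARS1: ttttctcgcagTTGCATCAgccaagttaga
CARS1: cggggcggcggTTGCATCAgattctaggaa
GARS1: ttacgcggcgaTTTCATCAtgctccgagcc
IARS1: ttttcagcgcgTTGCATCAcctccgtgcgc
MARS1: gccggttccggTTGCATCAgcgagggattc
NARS1: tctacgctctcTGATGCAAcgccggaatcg
TARS1: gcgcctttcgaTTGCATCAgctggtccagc
YARS2: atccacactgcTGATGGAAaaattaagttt

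These stretches lie at chr16:70289675-70289704 (AARS1, minus strand), chr11:3057407-3057436 (CARS1, minus), chr7:30594834-30594863 (GARS1, plus), chr9:92293692-92293721 (IARS1, minus), chr12:57488053-57488082 (MARS1, plus), chr18:57621804-57621833 (NARS1, minus), chr5:33440956-33440985 (TARS1, plus) and chr12:32756076-32756105 (YARS2, minus). In CARS1, MARS1, TARS1, IARS1, NARS1 and GARS1 the first base of the match was within 33 bases of an annotated start site, at -2, -4, 3, -13, 15 and -33, with the start site's own base as 1. In AARS1 and YARS2 it was farther upstream, at -187 and -197. The stricter TGATGCAA, added after the values were seen, was in 6 of 16 cytosolic genes, in 0 of 14 mitochondrial genes and in 1.08% of all genes. A match is a run of letters, and binding was not measured.

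The deposited values are linear signals, 1 per probe set, and the brightest probe set on average stands for each gene. A floor of 97.1, the median over all 5 arrays, replaced any lower signal, and between 48.4% and 52.6% of the probe sets of an array lay above it. All 32 synthetases were above the floor on every array, so none of their ratios is a bound. A difference of 2-fold, 1 on the log2 scale, was counted as higher or lower. With 1 array per condition no difference can be set against a spread between replicates, no test was made, and all values describe these 5 arrays. In the bulk RNA used, a change in the mix of cells and a change of RNA per cell cannot be told apart. The comparisons with the control share its 1 array, so a high or low control signal enters all 4 of them.

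**Figure D1:**
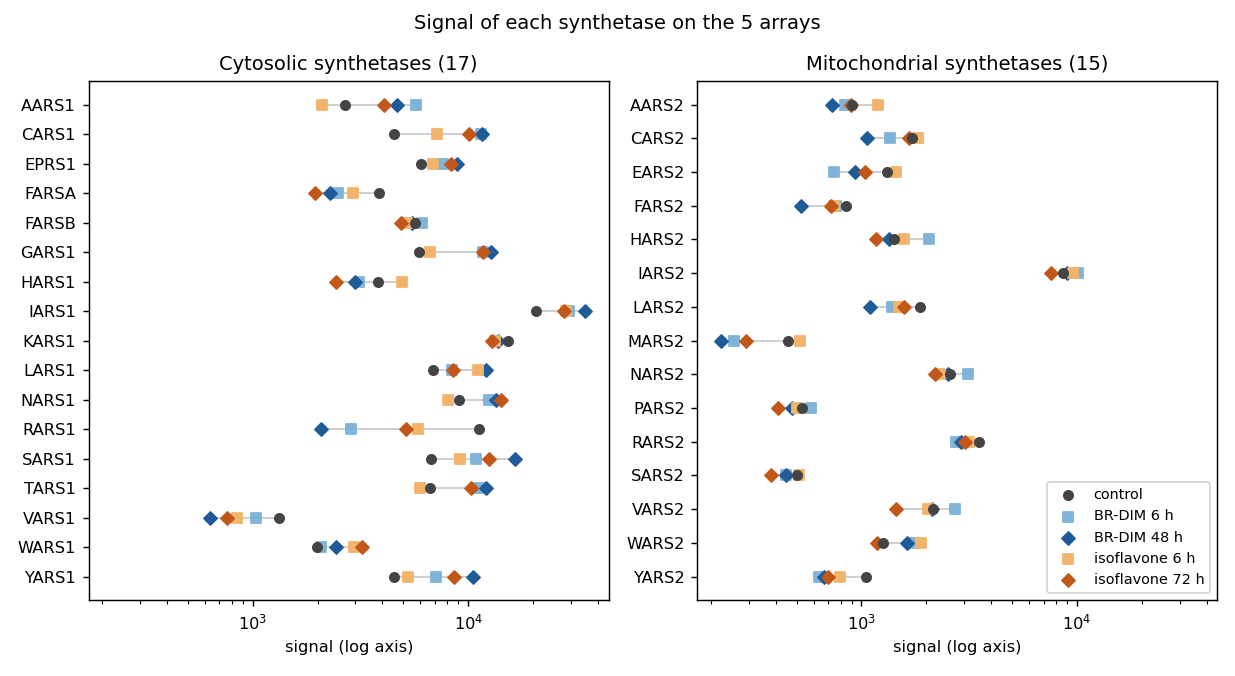
Signal of each measured synthetase on the 5 arrays (log axis), with the cytosolic members in the left panel and the mitochondrial members in the right panel and 1 point per array, which has no replicate. RARS1 runs from 11221.1 on the control down to 2080.2 on BR-DIM 48 h, and CARS1 runs the other way, from 4506.6 to 11577.3.

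After BR-DIM for 6 h, 2 of 17 cytosolic synthetases were at least 2-fold higher than the control, the cysteine enzyme CARS1 and the alanine enzyme AARS1, beside 2.86% of all 13020 measured genes. Only the arginine enzyme RARS1 was lower among the 32 synthetases, beside 0.806% of all genes. After BR-DIM for 48 h, 4 of 17 were higher (CARS1, the glycine enzyme GARS1, the serine enzyme SARS1 and the tyrosine enzyme YARS1), which is 23.5% beside a background of 5.33% of 12921 genes. At that time RARS1, the valine enzyme VARS1 and the mitochondrial methionine enzyme MARS2 were lower, beside 3.87% of all genes. After isoflavone for 6 h, 0 of 32 passed 2-fold in either direction, beside 1.18% of 12456 genes higher and 3.82% lower. After isoflavone for 72 h, CARS1 was higher and RARS1 lower, beside 4.8% and 2.06% of 12604 genes. None of the 15 genes for synthetases of mitochondria alone was at least 2-fold higher than the control on any of the 4 treated arrays. At most 5.33% of all genes were higher on a treated array, so this count is near the background. GARS1, which serves both compartments, was higher after BR-DIM for 48 h.

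**Figure D2:**
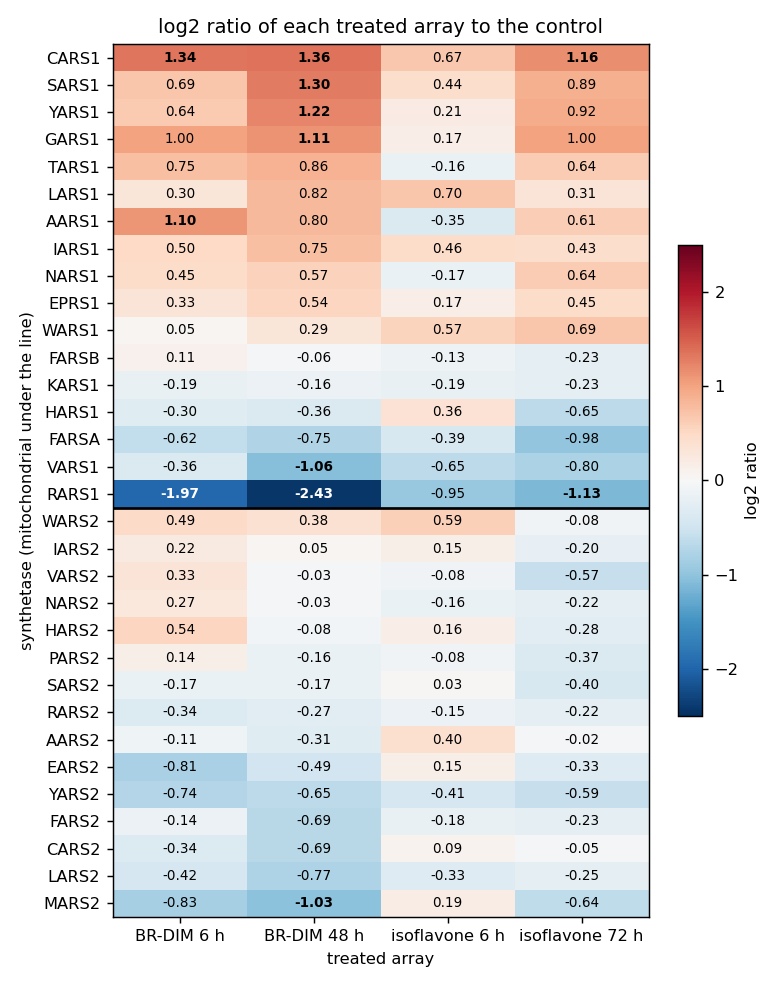
Log2 ratio of each treated array to the control (columns) for each measured synthetase (rows), with ratios of at least 2-fold in bold. CARS1 is bold on 3 arrays and RARS1 on 3, and GARS1 after BR-DIM for 6 h lies just under the threshold, at 1.999-fold.

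CARS1 had a control signal of 4506.6, BR-DIM signals of 11439.5 at 6 h and 11577.3 at 48 h, and isoflavone signals of 7176.0 at 6 h and 10094.2 at 72 h. All 4 treated arrays were above the control, by 1.34, 1.36, 0.67 and 1.16 on the log2 scale. CARS1 charges tRNA with cysteine, and its promoter match overlaps an annotated start site. A dimmer CARS1 probe set gave log2 ratios of 1.49, 1.51, 0.79 and 1.23, and the next, dimmer still, 0.77, 0.96, -0.10 and 0.85, so their directions differ after isoflavone for 6 h alone.

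AARS1 had a control signal of 2678.3, BR-DIM signals of 5740.0 at 6 h and 4675.8 at 48 h, and isoflavone signals of 2094.2 at 6 h and 4079.6 at 72 h. It was the only cytosolic member that passed 2-fold at BR-DIM 6 h (1.10) and not at 48 h (0.80), and it was under the control after isoflavone for 6 h (-0.35). GARS1, which attaches glycine, had signals of 5883.3, 11757.8, 12731.9, 6630.4 and 11751.7 in the same order. Its ratios were 1.999-fold after BR-DIM for 6 h, 2.164-fold at 48 h and 1.997-fold after isoflavone for 72 h, so 3 arrays sat at nearly the same level and only 1 of them crossed the threshold. AARS1 and GARS1 each rest on 1 probe set.

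SARS1, which supplies seryl-tRNA and also the serine on the selenocysteine tRNA, had a control signal of 6737.5, BR-DIM signals of 10848.0 at 6 h and 16546.4 at 48 h, and isoflavone signals of 9119.4 at 6 h and 12509.5 at 72 h. The later array was the higher one with each compound, and the log2 ratios to the control were 0.69, 1.30, 0.44 and 0.89. YARS1, the cytosolic tyrosine enzyme, had signals of 4538.9, 7097.2, 10568.0, 5263.3 and 8594.5, with the same order of the arrays and log2 ratios of 0.64, 1.22, 0.21 and 0.92. The dimmer probe set of SARS1 gave 0.95, 1.47, -0.01 and 1.09. The dimmer probe set of YARS1 gave 1.12, 0.59, -0.62 and 0.64, which puts its largest BR-DIM ratio at the other time.

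On the probe sets used, a further group of cytosolic members stayed within 2-fold of the control yet lay above it on both BR-DIM arrays and after isoflavone for 72 h. The threonine enzyme TARS1 had log2 ratios of 0.75 and 0.86 with BR-DIM and 0.64 with isoflavone for 72 h, but -0.16 with isoflavone for 6 h. NARS1, which attaches asparagine, had 0.45, 0.57 and 0.64 on the same 3 arrays and -0.17 after isoflavone for 6 h. The isoleucine enzyme IARS1 had a signal of 20664.9 on the control and 34874.5 at BR-DIM 48 h, a log2 difference of 0.75, and its other differences were between 0.43 and 0.50. LARS1, for leucine, had 0.30, 0.82, 0.70 and 0.31 on the 4 treated arrays, and EPRS1, which charges both glutamate and proline tRNAs, had 0.33, 0.54, 0.17 and 0.45. WARS1, the tryptophan enzyme and itself an interferon-induced gene, differed in shape, with 0.05 and 0.29 after BR-DIM and 0.57 and 0.69 after isoflavone. Other probe sets of WARS1, EPRS1 and LARS1 did not share all these directions. The other WARS1 probe set, nearly as bright, gave 0.20, -0.04, 0.29 and -0.28 on the 4 treated arrays. Of the other EPRS1 probe sets, the brighter gave 0.67, 0.67, 0.84 and 0.32 and the dimmer 0.15, 0.21, 0.05 and -0.91.

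RARS1 went the other way. Its signal was 11221.1 on the control, 2870.5 at BR-DIM 6 h, 2080.2 at BR-DIM 48 h, 5818.8 at isoflavone 6 h and 5120.9 at isoflavone 72 h. All 4 treated arrays were below the control and the BR-DIM arrays were the lowest, with log2 ratios of -1.97, -2.43, -0.95 and -1.13. RARS1 is an arginine enzyme of the multi-tRNA synthetase complex, and these values come from 1 probe set, so no other probe set checks them. VARS1 had a control signal of 1329.3 and treated signals of 1037.5, 636.9, 846.9 and 763.8, also all below the control, with log2 ratios of -0.36, -1.06, -0.65 and -0.80. Its dimmer probe set gave 0.38, -0.32, -0.53 and -1.71, with BR-DIM 6 h above the control.

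The phenylalanine enzyme is built of FARSA and FARSB chains, and the signals of the 2 genes differed in course. FARSA lay below the control on all 4 treated arrays, by -0.62, -0.75, -0.39 and -0.98 on the log2 scale, whereas FARSB stayed between -0.23 and 0.11. A second FARSA probe set was also below the control throughout, between -0.66 and -0.29, but a much dimmer FARSB probe set gave -0.68, -1.08, 0.55 and -0.01. HARS1, for histidine, had a control signal of 3825.2, BR-DIM signals of 3102.7 and 2978.5, and isoflavone signals of 4918.5 and 2443.8, so its isoflavone arrays were the highest and the lowest of the 5. The lysine enzyme KARS1 also stayed near the control, with log2 ratios between -0.23 and -0.16.

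Of the synthetases of the multi-tRNA synthetase complex, 5 were measured (EPRS1, IARS1, KARS1, LARS1 and RARS1), and their median log2 ratios on the 4 treated arrays were 0.30, 0.54, 0.17 and 0.31. The 12 cytosolic synthetases outside the complex had medians of 0.55, 0.69, 0.02 and 0.64. Of the complex members 0 of 5 were at least 2-fold higher on any treated array, beside at most 5.33% of all genes, so this count is near the background. Outside it, 2, 4, 0 and 1 of 12 were higher on the 4 treated arrays, beside 2.86%, 5.33%, 1.18% and 4.8%. The difference between these groups was not tested. The scaffold protein AIMP1 of the complex lay between -0.15 and 0.31.

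The 15 mitochondrial synthetases stayed closer to the control, and more of them lay below it than above it on 3 of the 4 treated arrays. MARS2 had a control signal of 454.4, BR-DIM signals of 255.6 at 6 h and 223.2 at 48 h, and isoflavone signals of 517.1 at 6 h and 292.4 at 72 h. The BR-DIM arrays were the lowest and isoflavone for 6 h the highest, with log2 ratios of -0.83, -1.03, 0.19 and -0.64. The glutamate enzyme EARS2 had signals of 1307.9, 745.4, 934.2, 1454.3 and 1042.4, again lowest with BR-DIM and highest with isoflavone for 6 h. Its other probe sets were at -1.09 and -0.88 after BR-DIM for 48 h, where the one used gave -0.49. YARS2, for tyrosine and the only mitochondrial member with a TGATGNAA match, was below the control on all 4 arrays (-0.74, -0.65, -0.41 and -0.59). LARS2, for leucine, was below it too (-0.42, -0.77, -0.33 and -0.25).

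Some mitochondrial members were above the control at 6 h. HARS2, for histidine, had log2 ratios of 0.54 after BR-DIM for 6 h and -0.08 at 48 h, and WARS2, for tryptophan, had 0.49 and 0.38 with BR-DIM, 0.59 after isoflavone for 6 h and -0.08 after 72 h. CARS2 and FARS2, for cysteine and phenylalanine, were both at -0.69 after BR-DIM for 48 h and between -0.34 and 0.09 elsewhere. On the probe sets used, the remaining members (AARS2, IARS2, NARS2, PARS2, RARS2, SARS2 and VARS2) stayed between -0.57 and 0.40. Another AARS2 probe set was at -0.84 after BR-DIM for 48 h. Of the other RARS2 probe sets, the brightest gave 0.18, 0.16, 0.33 and -0.48 on the treated arrays, and a dimmer one was at -1.25 after isoflavone for 72 h.

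Set beside each other, the 2 classes differed on 3 of the 4 treated arrays. The cytosolic medians were 0.33 at BR-DIM 6 h, 0.57 at BR-DIM 48 h and 0.45 at isoflavone 72 h, where the mitochondrial medians were -0.14, -0.27 and -0.25 and those of all measured genes 0.07, 0.06 and 0.05. After isoflavone for 6 h the medians were 0.17, 0.03 and 0.0, and their order changed with the processing. Above the control lay 12, 11, 9 and 11 of the 17 cytosolic members on the 4 arrays, and 6, 2, 8 and 0 of the 15 mitochondrial members, where 57.2%, 54.5%, 50.3% and 54.3% of all genes did. After isoflavone for 72 h every mitochondrial member was therefore below the control on the probe set used, from -0.64 for MARS2 to -0.02 for AARS2. A dim CARS2 probe set that was not used lay above it, at 0.50.

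**Figure D3:**
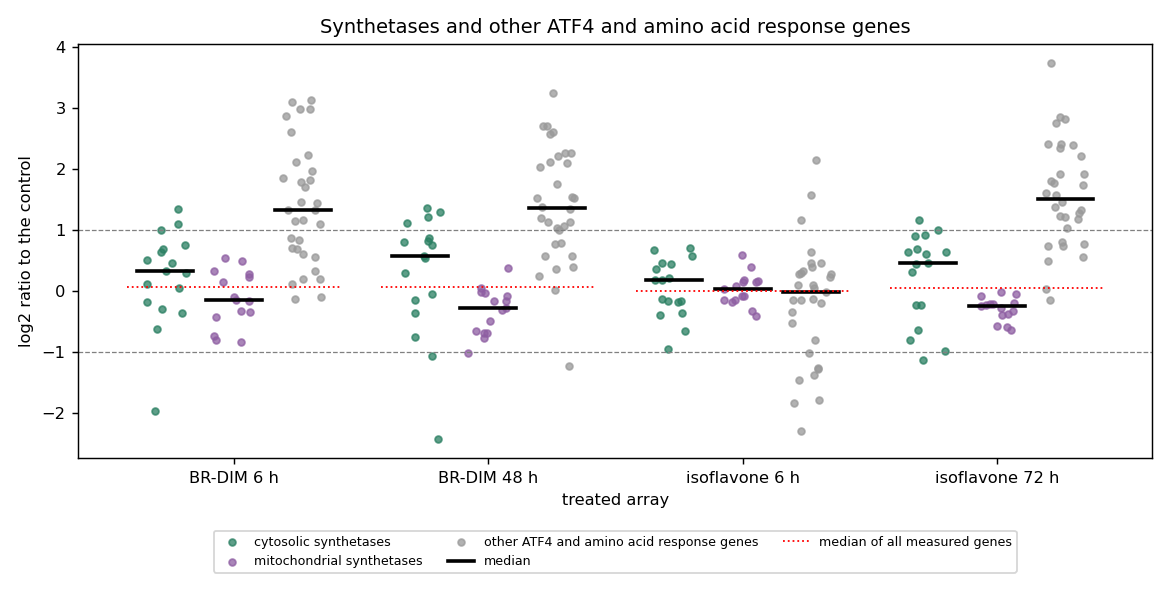
Log2 ratio to the control of each cytosolic synthetase, mitochondrial synthetase and other ATF4 or amino acid response gene (points) on the 4 treated arrays. Black bars give the median of each of these groups, the red dotted line that of all measured genes and dashed lines 2-fold. Between the synthetase classes the cytosolic median is the higher one on each array, by the least after isoflavone for 6 h (0.17 and 0.03). RARS1 is the lowest synthetase on all 4, but some other response genes lie lower after isoflavone for 6 h, down to -2.29.

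Matching each cytosolic gene with the mitochondrial gene for the same amino acid gave 14 pairs, in which FARSA and FARSB share FARS2. With differences rounded to 2 decimals, the cytosolic ratio was the greater in 9, 9, 8 and 9 of them on the 4 treated arrays. It was greater by at least 1 on the log2 scale in 4, 6, 1 and 3. FARSB and FARS2 after isoflavone for 72 h were equal at that rounding and not counted, with FARSB (-0.227) just above FARS2 (-0.230). Among pairs with the cytosolic ratio the greater, the cysteine pair was farthest apart at BR-DIM 48 h, with CARS1 at 1.36 and CARS2 at -0.69, a difference of 2.05. The tyrosine pair followed with 1.22 and -0.65. The arginine pair was farthest apart of all and ran the other way at that time, with -2.43 for RARS1 and -0.27 for RARS2, a difference of -2.16. The valine pair had the same order, with VARS1 at -1.06 and VARS2 at -0.03.

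**Figure D4:**
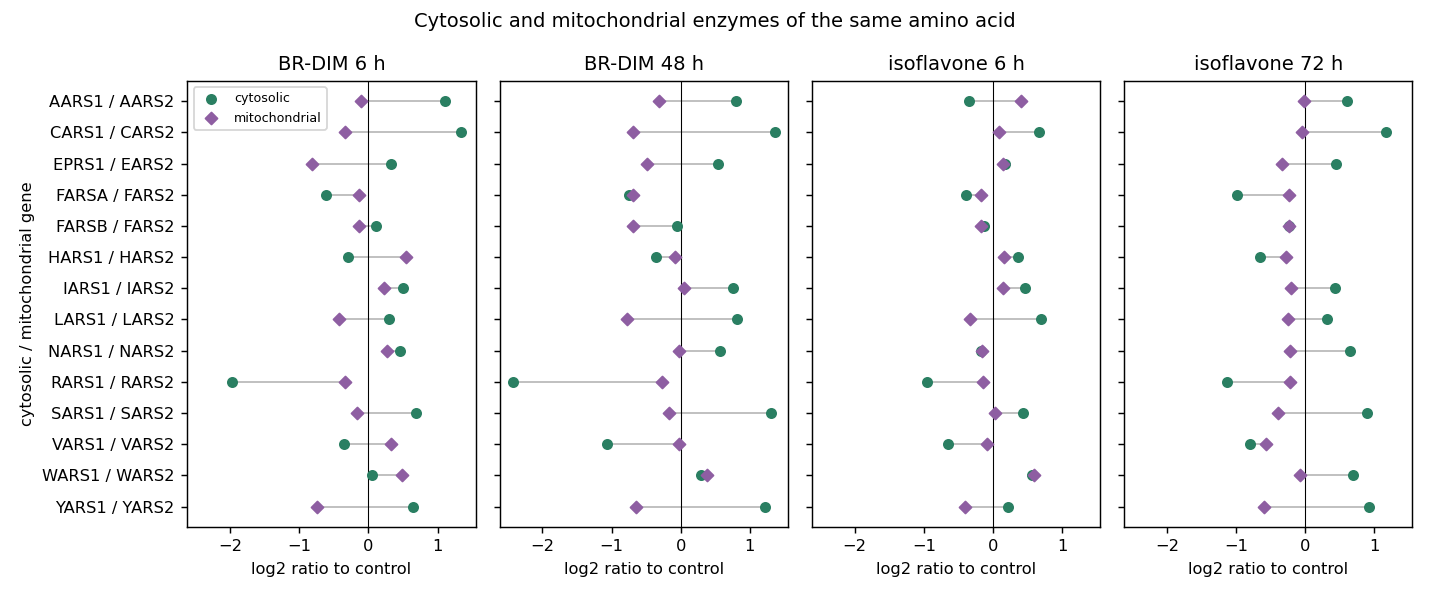
Log2 ratios to the control of the cytosolic and the mitochondrial synthetase for the same amino acid, 14 pairs on each treated array, each gene from 1 probe set. At 2 decimals, the cytosolic value is the greater in 9 of 14 pairs on both BR-DIM arrays and in 8 after isoflavone for 6 h. After isoflavone for 72 h it is the greater in 9, with FARSB and FARS2 equal at that rounding.

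The 6 measured cytosolic genes with a TGATGNAA match (AARS1, CARS1, GARS1, IARS1, NARS1 and TARS1) had median log2 ratios of 0.88, 0.83, 0.01 and 0.64 on the 4 treated arrays, and 6, 6, 3 and 6 of them were above the control. The 8 with a promoter in the table and no match (EPRS1, FARSA, FARSB, HARS1, KARS1, RARS1, SARS1 and WARS1) had medians of -0.07, -0.11, 0.02 and -0.23, with 4, 3, 4 and 3 above it. SARS1 was among the members at least 2-fold higher and had no match in these windows, which says only that these letters are not there. The 3 without a promoter in the table were, on the probe sets used, YARS1 and LARS1, above the control on all 4 arrays, and VARS1, below it on all 4. The motif was searched with the ratios already known, so these counts are a description.

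Between the times of one compound, 0 of 32 synthetases differed by 2-fold from BR-DIM 6 h to 48 h, beside 1.83% of 13383 genes higher and 3.74% lower. SARS1 (0.61), YARS1 (0.57) and LARS1 (0.52) were the cytosolic members that gained the most, and VARS1 (-0.70) lost the most. From isoflavone 6 h to 72 h, 0 of 32 were at least 2-fold higher on the probe sets used, beside 7.77% of 12658 genes. Only HARS1 was lower there (-1.01), beside 1.89%. AARS1 (0.96), GARS1 (0.83), NARS1 (0.81) and TARS1 (0.80) gained the most without reaching 2-fold. Dimmer probe sets of YARS1 (1.26), SARS1 (1.09) and CARS2 (1.24 or more) were at least 2-fold higher at 72 h. One of VARS1 was lower (-1.18 or less). The mitochondrial median of that comparison was -0.35, and 1 of 15 mitochondrial members, LARS2, was the higher at 72 h.

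The compounds can be set side by side at a matched time only at 6 h, where both were given at 25 µM, and this is the 1 pair compared. The agents differ in kind, a diindolylmethane formulation against a mixture of isoflavones. On the probe sets used, AARS1 was higher with BR-DIM by 1.45 on the log2 scale. It was the only member at least 2-fold higher there, beside 7.01% of 13075 genes. Among the probe sets not used, a dimmer one of YARS1 was at 1.75 and a dim one of TARS1 at 1.56 or more. A dim one of FARSB was at -1.24. RARS1 and MARS2 were each lower with BR-DIM, both at -1.02, beside 1.12% of all genes. TARS1 (0.91) and GARS1 (0.83) were higher with BR-DIM without reaching 2-fold, IARS1 differed by 0.04, and EARS2 was lower at -0.96. The cytosolic median of the difference was 0.24 and the mitochondrial median -0.10. With 1 array each, no interval can be given for any of these differences. The BR-DIM 48 h and isoflavone 72 h arrays differ in time and were not compared with each other.

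The other probe sets of the same genes give a technical view of these values, although they come from the same 5 RNAs. Among other probe sets with a mean signal above the floor, 24 of 18 genes could be compared on 3 treated arrays, and 23 of 17 genes after isoflavone for 6 h. They differed from the probe set used by a median of 0.22, 0.33, 0.37 and 0.32 on the log2 scale on the 4 treated arrays. The largest differences were 0.80, 1.02, 0.84 and 1.37. The direction was the same in 18, 22, 15 and 21 of them, so directions were least shared after isoflavone for 6 h. Where the probe set used was past 2-fold, the other probe set also was in 1 of 2 cases at BR-DIM 6 h. The same held in 2 of 5 at BR-DIM 48 h and 1 of 2 at isoflavone 72 h.

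**Figure D5:**
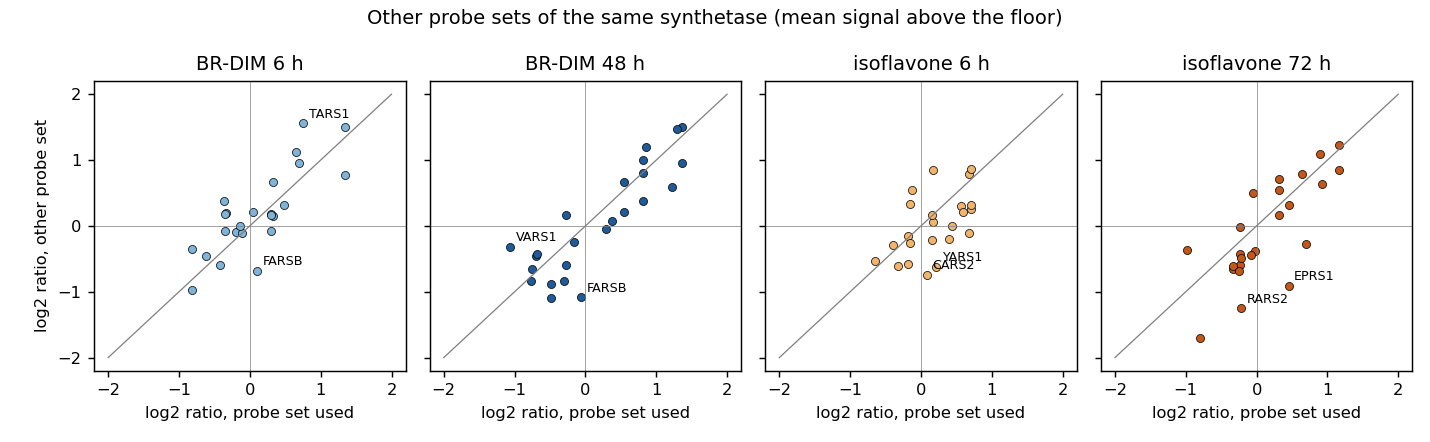
Log2 ratio to the control from the probe set used for a gene (horizontal axis) and from each of its other probe sets above the floor (vertical axis), 1 panel per treated array, with the line of equality. Points lie nearest the line after BR-DIM for 6 h, where the median distance is 0.22, and farthest after isoflavone for 6 h, where it is 0.37.

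Genes of the wider amino acid response had higher medians than the cytosolic synthetases on 3 treated arrays and a lower one after isoflavone for 6 h. The list of ATF4 and amino acid response genes other than synthetases was also drawn up with earlier results of these arrays known, and 32 of its genes were measured on 3 treated arrays and 31 after isoflavone for 6 h. At least 2-fold higher were 20, 22, 3 and 24 of them on the 4 treated arrays, beside 2.86%, 5.33%, 1.18% and 4.8% of all genes. Lower were 0, 1, 8 and 0, beside 0.806%, 3.87%, 3.82% and 2.06%, and the medians were 1.33, 1.36, -0.01 and 1.51. ATF4 itself, named after its values were seen, had a control signal of 13046.1, BR-DIM signals of 29416.6 and 33336.1, and isoflavone signals of 10250.5 and 31622.0. Its isoflavone 6 h array was thus the lowest of the 5, as it was for AARS1, NARS1 and TARS1. The 4 members of the list with the largest changes were the stress factor ATF3 (log2 ratios 2.61, 3.24, 1.57 and 2.41), the glutathione-degrading enzyme CHAC1 (at least 3.13 at BR-DIM 6 h, since its control signal was under the floor), the cystine transporter subunit SLC7A11 (2.87, 2.57, -1.01 and 3.74) and the mTORC1 inhibitor DDIT4 (3.09, 2.11, -1.79 and 2.41). Of the 25 genes of this list with a promoter in the table, 8 (32%) held TGATGNAA.

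Most other genes around the tRNA stayed within 2-fold of the control, but SEPSECS did not. SEPSECS completes selenocysteine on its tRNA after SARS1 has charged it. Its control signal was 256.0 and its treated signals were 656.2, 602.3, 610.1 and 662.5, each more than 2-fold higher. It is 1 of 3 measured genes in a list of synthetases and related genes outside the members. That is 33.3%, beside 2.86%, 5.33%, 1.18% and 4.8% of all genes on the 4 treated arrays. XPOT, the exporter of tRNA from the nucleus, was the only one of 11 genes of tRNA export, transcription and control at least 2-fold higher than the control, by 1.03 at BR-DIM 48 h. That is 9.09% beside a background of 5.33%, and the medians of these 11 were -0.10, -0.14, 0.15 and -0.21. Among 11 tRNA-modifying and processing enzymes the pseudouridine synthase PUS1 alone was lower, with signals of 1070.1 on the control and 534.1 after BR-DIM for 48 h (1 of 11, beside 3.87% of all genes), with medians of -0.24, -0.34, -0.06 and -0.22. The 5 mitochondrial charging helpers, which include the subunits QRSL1, GATB and GATC of the glutaminyl-tRNA amidotransferase, had 0 at least 2-fold changed on any treated array. At most 5.33% of all genes were higher and 3.87% lower on a treated array, so this count is near the background.

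Genes of mitochondrial translation had medians near those of the mitochondrial synthetases, and cytosolic elongation and initiation factors had medians near 0. The 19 measured genes of mitochondrial translation had medians of -0.19, -0.27, -0.10 and -0.40, and 0, 1, 0 and 2 were lower, beside 0.806%, 3.87%, 3.82% and 2.06% of all genes. The elongation factor TSFM (-0.99, -1.45, -0.44 and -1.08) and the ribosomal protein MRPS12 (-0.49, -0.90, -0.18 and -1.11) were those. The 12 cytosolic elongation and initiation factors had medians of -0.07, -0.05, -0.15 and -0.10, with EIF5A at -0.37, -1.60, -1.22 and -1.12 and EIF4G1 at -0.74, -1.07, -0.62 and -0.74, and EIF3C, dim on all arrays, was at 1.48 after isoflavone for 72 h. The 8 eIF2 kinases and related genes had medians of 0.05, 0.29, 0.05 and 0.37. Of them, only the phosphatase subunit PPP1R15A passed 2-fold against the control, higher by 1.53 at BR-DIM 48 h and 1.25 at isoflavone 72 h. That is 12.5% of the list, beside 5.33% and 4.8% of all genes. The MYC network list of 8 had medians of 0.45, 0.43, 0.13 and 0.19, and its repressor MXD1 was higher after isoflavone by 1.03 and 1.11. MXD1 alone is 12.5% of that list, beside 1.18% and 4.8% of all genes. The interferon-induced list had 4 measured genes of 9 on each comparison with the control, with medians of -0.20, -0.49, -1.50 and -0.09, and ISG15 in it had ratios of -0.28, -0.66, -1.62 and 0.31. The 9 housekeeping genes had medians between 0.05 and 0.13 and 0 past 2-fold, beside at most 5.33% of all genes higher and 3.87% lower.

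The cells were labelled as prostate cancer cells, and 7 measured markers of the prostate luminal lineage were all above the floor on the control, with a summed signal of 10282.6. The sum was 8711.3 after BR-DIM for 6 h and 6097.5 after isoflavone for 72 h, but 1475.6 after BR-DIM for 48 h and 1068.6 after isoflavone for 6 h, where all 7 were at least 2-fold lower and where KLK2, FOLH1 and TMPRSS2 were at or under the floor. Of all genes, 3.87% and 3.82% were at least 2-fold lower on these arrays. Of 10 markers of basal, stromal, endothelial, immune and neuroendocrine cells, the control and isoflavone 72 h arrays had 1 above the floor, BR-DIM 6 h had 4, BR-DIM 48 h had 3 and isoflavone 6 h had 2, with summed signals from 667.4 to 1503.1. The cytosolic synthetases had opposite extremes on the pair of arrays with few luminal transcripts, with the highest median at BR-DIM 48 h (0.57) and the lowest at isoflavone 6 h (0.17). The part of this loss of luminal markers in the synthetase values was not tested.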

How the data were processed

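C4-2B RNA from 5 conditions, 1 array each, was measured. The authors processed the intensity values in Affymetrix Microarray Suite and its companion programs (MAS5 in the submitters' processing notes) and deposited 1 linear signal per probe set, already scaled, with means of 498.1 to 498.4 after trimming 2% at each end. Version, scaling target and detection calls are not given in the sources used here. Of 54613 probe sets, 41091 carried 1 gene symbol in the gene table used, 1801 several and 11721 were absent from it; only the first kind was used. Symbols without the final 1 were read as the same gene. The 32 synthetases had 67 probe sets, and the brightest mean probe set represented each gene. Values were floored at 97.1 and compared as log2 ratios in 7 comparisons, 4 of them with the control, and 2-fold was counted as higher or lower. A gene counted as measured where 1 or both arrays compared exceeded the floor. No test was possible with 1 array per condition.

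The synthetases and all lists were chosen with earlier results of these data known. All synthetases could be named. Of each related list, the members at least 2-fold changed with a mean signal of at least 4 times the floor were named, at most 4, and ATF4, AIMP1, EIF3C and the charging helpers were named outside this rule. Promoters came from a RefSeq table (GRCh38.p14). Alternatives were quantile normalization, other scaling, floors, probe set rules, folds and motifs. The number of arrays limits the precision. The procedure was tested on simulated data. Python 3.11.15, numpy 2.4.6, pandas 2.3.3 and matplotlib 3.10.9 were used.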

Additional observations from a re-analysis of the deposited data

Results flagged for a closer look

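At 6 h, AARS1 was higher with BR-DIM than with isoflavone by 1.45 on the log2 scale, and it lay above the control with BR-DIM (1.10) and below it with isoflavone (-0.35). MARS2 differed at 6 h by -1.02, below the control with BR-DIM (-0.83) and above it with isoflavone (0.19). HARS1 differed by -1.01 between isoflavone 72 h and 6 h, below the control at 72 h (-0.65) and above it at 6 h (0.36). These 3 genes drew attention because the arrays moved in opposite directions from the control, and the differences were not tested, since each condition is 1 array.

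A TARS1 probe set that did not represent its gene had a signal of 285.8 after BR-DIM for 6 h, where the control signal was 57.9, under the floor. Its other signals were 221.8 after BR-DIM for 48 h, 37.0 after isoflavone for 6 h and 167.1 after isoflavone for 72 h.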

How the results depend on the processing

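A median or count of a class within 1.5-fold of the main one was taken as unchanged. By that rule 267 class values under an alternative were unchanged and 45 moved. The tolerance is wider than every class median, so a median could change sign and still count as unchanged. The 42 class values without a floor could not move, because every synthetase lies above it. No called ratio of a single gene changed sign, but calls were lost and gained. Quantile normalization lost MARS2 at BR-DIM 48 h, HARS1 between the isoflavone times and RARS1 between the compounds, and gained GARS1 at BR-DIM 6 h and isoflavone 72 h. The mean of all probe sets lost YARS1 and VARS1 at BR-DIM 48 h and gained TARS1. CARS1 higher and RARS1 lower at both BR-DIM times held under quantile normalization and scaling by the median ratio, and CARS1 also with the mean of all probe sets. The other settings at 2-fold or less could not change these calls. Both genes lie far above either floor, and 1.5-fold is looser than 2-fold. Dropping the less specific probe sets keeps the one used for each, and RARS1 has only 1. Under 3-fold only RARS1 with BR-DIM held. The median difference between cytosolic and mitochondrial synthetases was between 0.43 and 0.59 at BR-DIM 6 h, 0.79 and 0.91 at BR-DIM 48 h and 0.68 and 0.88 at isoflavone 72 h, and it changed sign, from -0.20 to 0.15, at isoflavone 6 h.

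Quantile normalization gave 2 cytosolic genes higher at isoflavone 72 h, 0 mitochondrial lower at BR-DIM 48 h, 0 cytosolic lower between the isoflavone times, and 2 higher and 0 lower cytosolic between the compounds at 6 h. A floor at 471.7 gave 0 mitochondrial lower at BR-DIM 48 h and between the compounds. The mean of all probe sets gave 1 cytosolic lower at BR-DIM 48 h, 2 lower at isoflavone 72 h and 3 higher between the compounds. Without the less specific probe sets, which leaves 11 cytosolic genes without GARS1 and VARS1, 2 were higher and 1 lower at BR-DIM 48 h, where YARS1 was at 0.59, 1 was higher between the isoflavone times and 2 between the compounds. At 1.5-fold, cytosolic higher and lower were 6 and 2 at BR-DIM 6 h, 8 higher at BR-DIM 48 h, 2 and 2 at isoflavone 6 h, 8 and 4 at isoflavone 72 h, 1 and 1 between the BR-DIM times, 5 and 2 between the isoflavone times and 5 and 2 between the compounds. Mitochondrial lower at 1.5-fold were 3, 5, 2, 1, 2 and 2 (isoflavone 6 h left out, where 1 was higher). At 3-fold all cytosolic higher counts were 0, cytosolic lower 1 at BR-DIM 48 h and 0 at isoflavone 72 h, between the isoflavone times and between the compounds, and mitochondrial lower 0. TGATGCAA was in 0 mitochondrial genes. Beyond the genes a setting leaves out, the cause of these shifts was not tested.

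No paired analysis was possible because each group holds 1 array, and none was left out. Signal over background limits MARS2 most, at 255.6 and 223.2 with BR-DIM beside a floor of 97.1.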
